A study of Homo sapiens with 15 samples.

Results

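The comparison described here is porcupine inhibition for 24 h in HPAF-II cells, a human pancreatic adenocarcinoma line. It was made up of the 8 libraries labelled Lgk974 or DMSO at 24 h, chosen by those labels from the 15 libraries of the study. Of these, 4 came from cells given 1 µM Lgk974 for 24 h and 4 from cells given the solvent DMSO for 24 h. The other 7 libraries, 3 with Lgk974 and 4 with DMSO, were taken at 48 h and served here only as further samples in which the regions found at 24 h could be looked up. The labels name HPAF-II for every library, although the growth protocol also describes the gastric cancer line KATO III. Each library was prepared from 50000 cells, per the labels' protocols. The labels do not state whether the 4 replicates of a group were separate cultures, so each p-value is set against a spread between libraries that may be purely technical.

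WNT proteins are lipid-modified in the endoplasmic reticulum by porcupine (gene symbol PORCN), carried to the cell surface by the transporter WLS, and bound by Frizzled receptors on the receiving cell. Binding stabilises beta-catenin, which joins TCF and LEF factors on DNA and turns on targets such as AXIN2, LGR5, RNF43, ZNRF3, NKD1 and NOTUM, many of which damp the signal again. HPAF-II carries a loss of RNF43, a ubiquitin ligase that removes Frizzled from the surface, and is known as a line whose growth depends on secreted WNT, the reason why porcupine inhibitors such as Lgk974 are used on it. ATAC-seq maps accessible DNA with a transposase that inserts sequencing adapters where chromatin is open, and a peak is a stretch with more insertions than its surroundings. In such bulk libraries, fewer cells with an open site and a less open site in each cell cannot be told apart.

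The deposited data were 1 list of called peaks per library (hg38), which gives a yes or no per region and leaves the sequencing depth unknown. The lists on chromosomes 1 to 22 and X held 95133, 98845, 53583 and 98205 peaks with Lgk974, against 106033, 104742, 127755 and 76679 with DMSO. Both lists of replicate 3 stood apart. The Lgk974 replicate 3 list was the shortest, covering 25.5 Mb, against 49.99 to 51.4 Mb in the other Lgk974 lists. The DMSO replicate 3 list was the longest, with a median width of 327 bp, and 51086 of the 122688 regions called in it (41.6%) were called in no other library at 24 h. Its mean Jaccard index with the other lists, the shared share of regions, was 0.381, against 0.603 to 0.629 in the other DMSO lists. None of 7 measures of the lists passed a test between Lgk974 and DMSO (two-sided exact permutation tests over 70 assignments, p = 0.314 to 0.943, adjusted p = 0.6 to 0.943). The ductal epithelial markers KRT7, KRT8, KRT18, KRT19, EPCAM, CDH1, SOX9, GATA6 and MUC1 had a peak within 1 kb of a gene end in all 8 lists (9 of 10 markers). Of 7 immune markers CD3E, CD14 and SPI1 had one in all 8 lists and 3, PTPRC and MS4A1 among them, in none. Of 7 fibroblast markers COL1A1 had one in all 8 lists and COL3A1, DCN and LUM in none. Each list held 3 to 4 immune markers in both groups, and 1 to 4 fibroblast markers with Lgk974, against 2 to 4 with DMSO, and their part in the results was not tested.

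**Figure D1:**
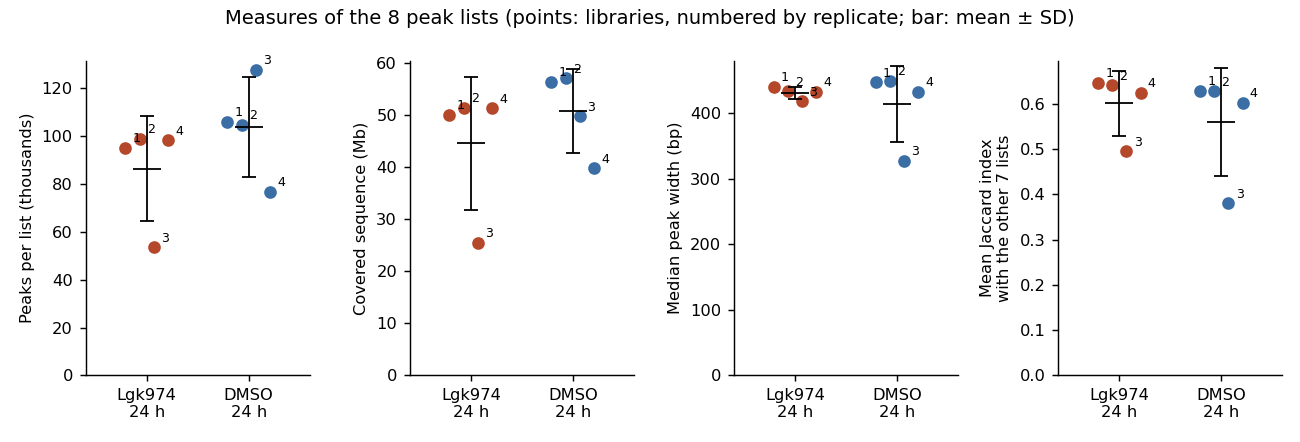
Peaks per list, covered sequence in Mb, median peak width in bp and the mean Jaccard index with the other 7 lists, for 4 Lgk974 and 4 DMSO libraries at 24 h (points, numbered by replicate; bars, mean and SD). Lgk974 replicate 3 is lowest in peaks and covered sequence, and DMSO replicate 3 is highest in peaks and lowest in width and Jaccard index.

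Merging the peaks of the 8 lists gave 191634 regions, 396 bp wide at the median. All 8 lists held 40935 of them (21.4%), and a single list held 77529 (40.5%). Called in all 4 Lgk974 and no DMSO list were 71 regions, 0.125% of the 56612 regions called in 2 to 6 lists, and they are named Lgk974-called regions here. Called in no Lgk974 and all 4 DMSO lists were 195 regions, 0.344% of those tested, named DMSO-called regions. No single region passed the two-sided exact permutation test on calling after Benjamini-Hochberg adjustment (0 of 56612, smallest adjusted p = 1). Unadjusted, the 71 and 195 separated regions are those that reach the smallest exact p of this design, 0.0286. Only regions called in 4 of the 8 lists, 8958 of the 56612, can reach that p. These are too few for any to pass after adjustment, so the adjusted test could not have called a region. Among the tested regions 14197 were called more often with Lgk974, 20134 more often with DMSO and 22281 equally often.

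Promoter sequence is shown for 4 genes whose promoter window overlapped a separated region, so that the difference in calling falls at or near a gene's own start. Among the promoter windows read, that of 1 coding gene, PLXNB2, overlapped a Lgk974-called region, and windows of 8 coding genes overlapped DMSO-called regions, of which FADS2, CLGN and PHKG1 are shown, picked after their values were seen. The start itself lay in the region at FADS2, CLGN and PHKG1, whereas at PLXNB2 the region began 113 bp upstream of the start. PLXNB2 encodes plexin B2, a semaphorin receptor, FADS2 a fatty acid desaturase, CLGN the chaperone calmegin and PHKG1 a catalytic subunit of phosphorylase kinase. The windows are RefSeq sequence of GRCh38.p14, 250 bases before to 50 after a start, read 5′ to 3′ on the gene's strand, and stand at chr22:50301620-50301919 (minus strand) for PLXNB2, chr11:61816154-61816453 (plus) for FADS2, chr4:140427599-140427898 (minus) for CLGN and chr7:56092903-56093202 (minus) for PHKG1. Capitals mark the TCF and LEF core CTTTG and the GC box GGGCGG, each on either strand, which read CAAAG and CCGCCC on the other.
PLXNB2: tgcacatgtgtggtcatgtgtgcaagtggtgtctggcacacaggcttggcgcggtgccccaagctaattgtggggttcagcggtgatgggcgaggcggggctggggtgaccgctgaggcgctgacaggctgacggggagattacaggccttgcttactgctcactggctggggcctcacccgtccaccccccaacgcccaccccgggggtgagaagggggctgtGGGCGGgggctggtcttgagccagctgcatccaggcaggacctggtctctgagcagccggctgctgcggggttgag
FADS2: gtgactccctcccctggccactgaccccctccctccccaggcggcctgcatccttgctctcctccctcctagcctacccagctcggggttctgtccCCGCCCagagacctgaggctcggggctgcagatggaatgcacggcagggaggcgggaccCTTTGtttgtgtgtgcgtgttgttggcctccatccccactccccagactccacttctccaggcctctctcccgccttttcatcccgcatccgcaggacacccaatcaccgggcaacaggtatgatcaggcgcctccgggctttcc
CLGN: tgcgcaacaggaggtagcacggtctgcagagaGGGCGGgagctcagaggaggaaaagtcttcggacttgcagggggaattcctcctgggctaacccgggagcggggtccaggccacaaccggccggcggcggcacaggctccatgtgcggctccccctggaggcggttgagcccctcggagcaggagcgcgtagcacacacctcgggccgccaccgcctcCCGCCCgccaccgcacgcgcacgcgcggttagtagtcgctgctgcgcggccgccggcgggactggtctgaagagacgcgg
PHKG1: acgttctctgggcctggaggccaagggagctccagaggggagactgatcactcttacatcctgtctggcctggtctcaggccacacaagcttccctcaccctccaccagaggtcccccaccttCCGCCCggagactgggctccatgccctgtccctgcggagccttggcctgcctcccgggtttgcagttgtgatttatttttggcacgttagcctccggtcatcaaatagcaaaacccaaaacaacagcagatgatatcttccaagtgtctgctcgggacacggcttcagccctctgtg
Of these windows, FADS2 held 1 CTTTG match and the other 3 held 0, and GGGCGG matched 1 time in PLXNB2, FADS2 and PHKG1 and 2 times in CLGN. Over all 34961 promoter windows on these chromosomes, 47.5% held CTTTG and 45.0% held GGGCGG, so either match is common. The windows had a GC content of 66.7% in PLXNB2, 65% in FADS2, 71% in CLGN and 58% in PHKG1, against a median of 58.7% over all windows. A second FADS2 window, chr11:61815953-61816252, is not shown. It lay wholly in the same DMSO-called region and held 0 CTTTG and 0 GGGCGG matches.

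The PLXNB2 window overlapped a Lgk974-called region by 138 bp. That region, chr22:50301782-50302448, lay inside the gene's annotated span and ranked at the 36.2, 29.1, 12.6 and 44 percentile of significance in the 4 Lgk974 lists. This percentile is the rank of a peak's −log10 q, the authors' own value, among the peaks of the same list, with 100 the most significant, and it describes peaks within a list only. The FADS2 window shown shared 291 bp with a DMSO-called region at chr11:61815902-61816444, ranked at the 1.35, 12.3, 52 and 11.5 percentile in the DMSO lists. The CLGN and PHKG1 windows lay wholly, over 300 bp, in DMSO-called regions with median percentiles of 23.7 and 7.56. All 4 regions thus ranked low in most of the lists that held them. In the 48 h lists, PLXNB2 was called again in 3 of 3 Lgk974 and 0 of 4 DMSO lists, and CLGN in 1 of 3 Lgk974 and 3 of 4 DMSO libraries, whereas PHKG1 was found in 2 of 3 Lgk974 and 3 of 4 DMSO lists, and FADS2 in 2 of 3 Lgk974 and 1 of 4 DMSO libraries.

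Ranked by median percentile, the strongest Lgk974-called regions lay inside LUZP2, at an end of SIK3 and inside PRKCA. The leading region, chr11:24861526-24862139, lay inside LUZP2 and ranked at the 50.5, 68.7, 70.3 and 67.8 percentile in the 4 Lgk974 lists, with deposited folds over background of 5.64, 7.34, 10.3 and 6.94. A region at an end of SIK3, a salt-inducible kinase gene, at chr11:116842917-116843421, ranked at the 55.9, 68.4, 11.9 and 67.1 percentile. By percentile and by fold, the Lgk974 replicate 3 peak was the lowest of the 4 at SIK3 and the highest at LUZP2. PRKCA, which encodes protein kinase C alpha, was the gene nearest to 2 Lgk974-called regions, both inside the gene. The stronger, chr17:66547168-66547871, ranked at the 56.4, 59.9, 41.4 and 55.3 percentile, and the weaker, chr17:66713546-66713989, at the 34.9, 37.7, 13.9 and 40.2 percentile. No other gene was nearest to 2 Lgk974-called regions.

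RAB7B, a small GTPase gene, was nearest to the region at chr1:206005227-206005594, which also lay 3670 bp from CTSE, the gene of the gastric aspartic protease cathepsin E. Its percentiles were 44.4, 48.1, 26.8 and 55.2. The region inside PLB1, the gene of a phospholipase, ranked at a median percentile of 50.9, and the region inside ADAMTS9, the gene of a secreted metalloprotease, at 49.5. GRID1, a glutamate receptor subunit gene, held a region with a median percentile of 46.7. Like the region nearest RAB7B, another 4 of the 12 strongest lay outside genes. Their nearest genes were CCDC112 (79236 bp away), TBC1D1, a Rab GTPase-activating protein gene (173964 bp), PLCXD1 (1162 bp) and the ubiquitin-conjugating enzyme gene UBE2E3 (335226 bp). At 10 of the 12, the replicate 3 peak had the lowest percentile of the 4 Lgk974 peaks, in the shortest list. By deposited fold it was the lowest at 2 of the 12 and the highest at 6.

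Of the 12 DMSO-called regions with the strongest peaks, 8 lay outside genes. The leading one, chr12:67915220-67915778, had IFNG, the interferon gamma gene, as its nearest protein-coding gene at a distance of 238990 bp. It ranked at the 78.4, 74.3, 51.5 and 69.7 percentile in the 4 DMSO lists, with deposited folds of 6, 5.05, 5.43 and 4.88. The region nearest LYRM9, at chr17:27960146-27960777, ranked at the 72.5, 73.3, 45.1 and 54.5 percentile. The region nearest SLC6A20, a proline transporter gene, lay 9481 bp from it and ranked at the 63.1, 71.4, 43.4 and 58.6 percentile. TNFAIP8L3 held a region of 954 bp inside the gene, 3267 bp from its nearer end, that ranked at the 75.2, 69.8, 26.6 and 49.9 percentile. In these 4 regions the DMSO replicate 3 peak had the lowest percentile of the 4, in the longest list. By deposited fold it was the lowest at 3 of them, whereas near IFNG the replicate 4 peak was.

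The other 8 ranked at median percentiles of 47.9 to 53.9. Among them IRS1, the insulin receptor substrate gene, lay 111789 bp from its region, and CTPS2, a CTP synthase gene, lay 122174 bp away. CFAP126, a gene of cilia, lay 53985 bp away. Inside genes were the regions of SRGAP1, a GTPase-activating protein gene, and of MCU, the mitochondrial calcium uniporter gene, and within the span of NAA38, a subunit of an N-terminal acetyltransferase, lay a region 6498 bp from its nearer end. TRIQK and EFR3A were the nearest genes of the remaining 2, at 288987 and 58412 bp.

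MYC, ENAH and PKP2 were each the gene nearest to 2 DMSO-called regions. MYC encodes a growth-promoting transcription factor and is itself a WNT target in intestinal epithelium. Its regions lay 38814 and 131691 bp from the gene. The nearer one ranked at the 64.2, 42, 35.7 and 33.6 percentile in the DMSO lists, and the farther one at the 46.4, 37.7, 17 and 2.4 percentile. PKP2 encodes plakophilin 2, a desmosome protein, and both of its regions lay inside the gene with median percentiles of 32.6 and 32.1. The regions near ENAH, an actin regulator gene, had median percentiles of 28.7 and 12.4.

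**Figure D2:**
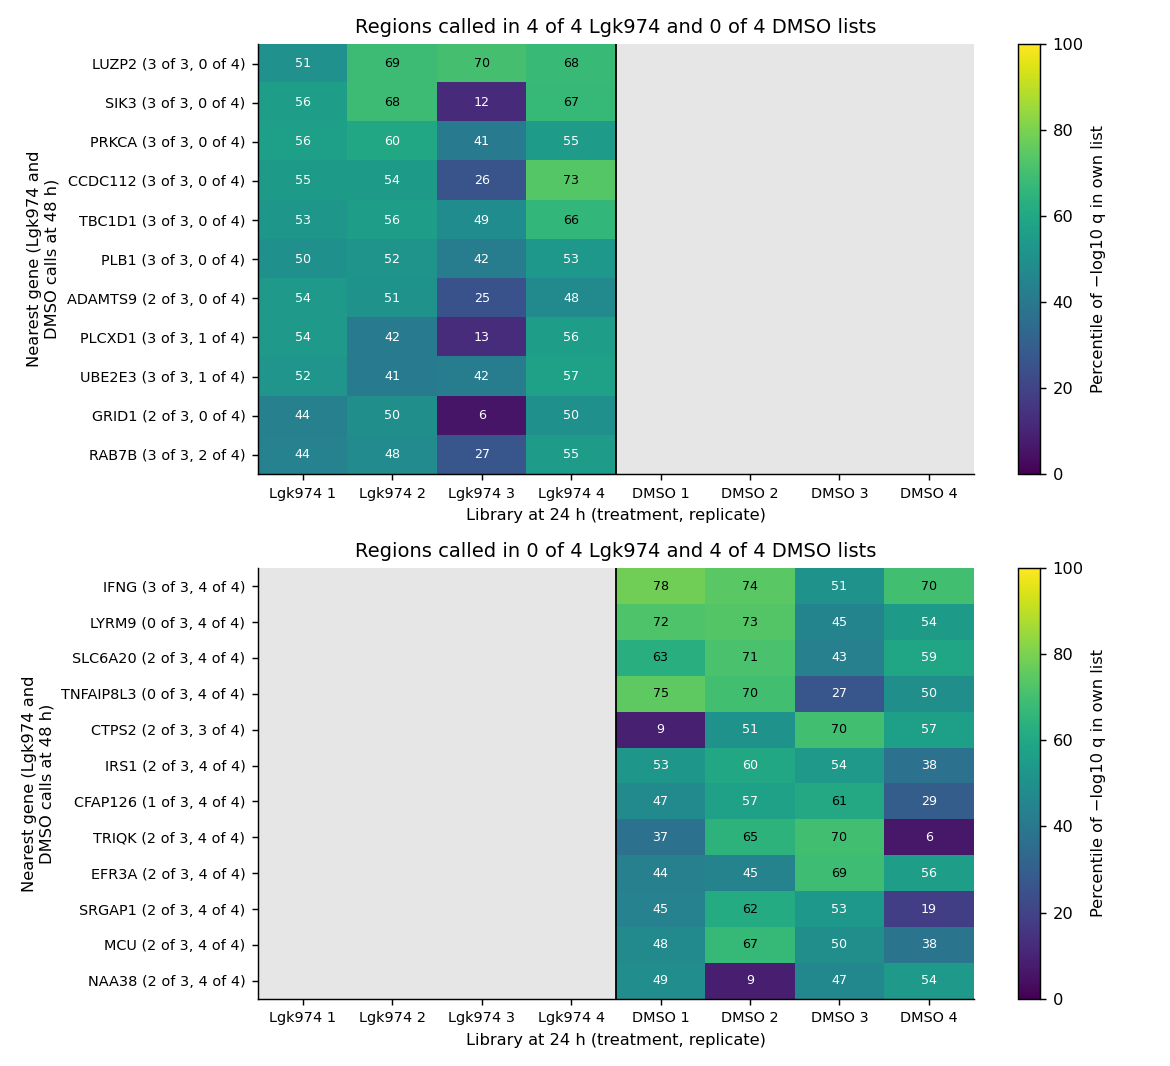
Percentile of −log10 q of the peaks within each library's own list at 24 h for 11 of the 12 strongest regions called in 4 of 4 Lgk974 and 0 of 4 DMSO lists (upper panel) and the 12 strongest called in 0 of 4 Lgk974 and 4 of 4 DMSO lists (lower panel); grey cells had no peak, and brackets give calls at 48 h. LUZP2 leads the upper panel and IFNG the lower.

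The separated regions were mostly weak peaks. Their median percentile was 25.6 in the Lgk974-called and 25.9 in the DMSO-called regions, and no region passed 68.3 in the Lgk974-called or 72 in the DMSO-called set. The median of Lgk974-called regions was lowest in Lgk974 replicate 3 (12.4) and that of DMSO-called regions highest in DMSO replicate 3 (49.5), the shortest and the longest list. Of the 71 Lgk974-called regions, 5 (7.04%) lay within 1 kb of a gene end, 32 inside a gene and 34 between genes. Of the 195 DMSO-called regions, 27 (13.8%) lay at a gene end, 90 inside a gene and 78 between genes, while 6.60% of all tested regions lay at a gene end. Gene ends with a DMSO-called region included those of SPRY1, an inhibitor of receptor tyrosine kinase signalling, AREG, the gene of the EGF receptor ligand amphiregulin, RRM2, a subunit of ribonucleotide reductase, and APOL1, which were picked after their values were seen. None of these genes is among those below whose ends as a whole were separated. At 48 h their regions were called, in this order, in 0, 3, 1 and 1 of 3 Lgk974 and 1, 4, 1 and 4 of 4 DMSO lists. Gene ends with a Lgk974-called region were those of SIK3, LYZL2, PRKAB1, SLC22A23 and COL23A1, or of a gene beside them. The 2 sets had median widths of 437 and 445 bp, against 414 bp over all tested regions.

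At the level of genes, a gene end was counted as open where a peak lay within 1 kb of either end of the gene. Of 19974 protein-coding genes, 11547 (57.8%) were open in all 8 lists and 4118 (20.6%) in none, and 1840 were open in 2 to 6 lists and could be tested. LYZL2, a lysozyme-like gene, was open in 4 of 4 Lgk974 and 0 of 4 DMSO libraries, 1 gene or 0.0543% of those tested. In the opposite direction 14 genes (0.761%) were open in 0 of 4 Lgk974 and 4 of 4 DMSO libraries. These were FADS1, the desaturase gene beside FADS2, PHKG1 and CLGN, PCSK1, a prohormone convertase gene, PARP15, an ADP-ribosyltransferase gene, CARD14, a scaffold of NF-kappa-B signalling, BRD1, a bromodomain gene, FBXO41, LST1, LRRC63, GRAMD2A, IGSF6, C16orf92 and CT45A1, a cancer/testis antigen gene. None passed the exact permutation test after adjustment (0 of 1840, smallest adjusted p = 1, with 15 at the smallest exact p of 0.0286). Of the tested genes 302 were open more often with Lgk974, 799 more often with DMSO and 739 equally often, with a median difference of 0 libraries.

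Of these 15 genes 11 kept their direction at 48 h and 4 did not, with no share over all tested genes to set beside this. CARD14 was open in 0 of 3 Lgk974 and 4 of 4 DMSO libraries at 48 h, and LRRC63 and IGSF6 in 0 of 3 Lgk974 and 3 of 4 DMSO libraries. LYZL2 was open in 2 of 3 Lgk974 and 2 of 4 DMSO libraries. The 4 that turned were FADS1 and PCSK1, each open in 2 of 3 Lgk974 and 1 of 4 DMSO libraries, FBXO41 (1 of 3 and 0 of 4) and BRD1 (1 of 3 and 1 of 4). At BRD1 the window of a start within the gene was open in 4 of 4 Lgk974 and 4 of 4 DMSO libraries at 24 h, so that the difference lay at an end of the annotated span and not at that start. The windows of 1 kb around RefSeq starts, known here for 15812 genes, held no peak in any of the 8 lists at LYZL2 and IGSF6, whose differences thus lay at the other end.

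The WNT pathway was read from 3 lists, by role. Of 36 ligands, receptors and secretion genes, 19 were open at their ends in all 8 lists and 8 in none, the 8 being WNT2, WNT3, WNT5A, WNT5B, WNT9B, WNT11, WNT16 and ROR2. Of these, starts within WNT5B and WNT16 had a peak within 1 kb in 3 and 3 of 4 Lgk974 libraries, against 2 and 3 of 4 DMSO libraries. PORCN itself, whose product Lgk974 inhibits, was open in 4 of 4 Lgk974 and 4 of 4 DMSO libraries. WLS, picked for its role after its values were seen, was open in 3 of 4 Lgk974 and 4 of 4 DMSO libraries. Only 3 genes of the list could be tested. FZD10, a Frizzled receptor gene, was open in 2 of 4 Lgk974 and 0 of 4 DMSO libraries, while a DMSO-called region lay 13803 bp from it, called in 1 of 3 Lgk974 and 4 of 4 DMSO lists at 48 h. The ligand gene WNT3A was open in 2 of 4 Lgk974 and 1 of 4 DMSO libraries. Of 170 tested regions within 50 kb of this list, 0 were Lgk974-called and 1 was DMSO-called, the region near FZD10.

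Among 40 targets of beta-catenin, 27 were open in all 8 lists, among them LGR5, RNF43, ZNRF3, SP5, MYC and CCND1. TCF7 and FGF20 were open at neither end in any list, although a start within TCF7 had a peak within 1 kb in 4 of 4 Lgk974 and 4 of 4 DMSO libraries. AXIN2, the scaffold of the destruction complex and a feedback inhibitor, was open in 0 of 4 Lgk974 and 3 of 4 DMSO libraries, the largest difference on the list, and this did not pass the exact permutation test (exact p = 0.143, adjusted p = 1 over 1840 genes). DMSO replicate 4, whose list is the shortest of the DMSO lists, was the library without the AXIN2 peak. At 48 h AXIN2 was open in 0 of 3 Lgk974 and 4 of 4 DMSO libraries. NKD1, an inhibitor of Dishevelled, and NOTUM, which strips the lipid from WNT proteins, were each open in 1 of 4 Lgk974 and 2 of 4 DMSO libraries. NRCAM, a cell adhesion gene, was open in 0 of 4 Lgk974 and 2 of 4 DMSO libraries, and LEF1 in 0 of 4 and 1 of 4. At NRCAM starts within the gene had a peak in 2 of 4 Lgk974 and 3 of 4 DMSO libraries. Of the 9 testable targets 0 were open more often with Lgk974, 5 more often with DMSO and 4 equally often, with a median difference of -1 library, against 302, 799 and 739 of all 1840 genes with a median of 0. Within 50 kb of the 40 targets lay 241 tested regions, 0 of them Lgk974-called and 2 DMSO-called, near MYC and inside TCF7L2.

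Of 23 genes of the destruction complex and the transcription partners of beta-catenin, 16 were open in all 8 lists and TCF7, as above, and DVL1 at neither end in any list. TCF7L1, a TCF factor gene, was open in 2 of 4 Lgk974 and 3 of 4 DMSO libraries. Of 129 tested regions within 50 kb, 0 were Lgk974-called and 2 DMSO-called, 1 inside TCF7L2 and 1 at 24656 bp from CTNNB1, the beta-catenin gene. The latter lay inside another gene, ULK4. The region near CTNNB1 was found in 2 of 3 Lgk974 and 1 of 4 DMSO lists at 48 h, and the region inside TCF7L2 in 1 of 3 Lgk974 and 1 of 4 DMSO libraries.

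Interferon-stimulated genes, which antiviral signalling turns on, were open in all 8 lists at 41 of 54 genes, with IFIT2, ISG15, MX1, OAS1, IRF1, IRF7 and IRF9 among them. IFIT1 and IFIT3 were open in 3 of 4 Lgk974 and 4 of 4 DMSO libraries. IFI27 was open at its ends in 0 of 4 Lgk974 and 2 of 4 DMSO libraries, but the window of a start within it held a peak in 4 of 4 Lgk974 and 4 of 4 DMSO libraries. TRIM22, an antiviral TRIM protein gene, was open in 3 of 4 Lgk974 and 1 of 4 DMSO libraries. Of 6 testable genes 3 were open more often with Lgk974, 1 more often with DMSO and 2 equally often, with a median difference of 0.5 libraries. Of 190 tested regions within 50 kb, 1 was Lgk974-called and 1 DMSO-called, the DMSO-called one 1069 bp from DTX3L and 11488 bp from PARP9. The gene nearest to the DMSO-called one was PARP15, 648 bp away, named above for its separated ends.

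Of 25 genes of nucleic acid sensing and of the interferons, 15 were open in all 8 lists, with the RNA sensors RIGI and IFIH1 among them, and 95 nearby tested regions held 0 Lgk974-called and 0 DMSO-called regions. TLR9, a sensor of DNA, was open in 2 of 4 Lgk974 and 4 of 4 DMSO libraries. Genes that silence endogenous retroviruses were open in all 8 lists at 24 of 28, including SETDB1, TRIM28 and DNMT1. Of 116 nearby tested regions 0 were Lgk974-called and 1 was DMSO-called, 8134 bp from CBX5, the gene of a heterochromatin protein. HNRNPA1 lay nearer to that region, at 1169 bp. DNMT3B, EHMT1 and SUZ12 were each open in 3 of 4 Lgk974 and 4 of 4 DMSO libraries, and a start within DNMT3B in 4 of 4 and 4 of 4. Antigen presentation genes were open in all 8 lists at 18 of 22, and 67 nearby tested regions held 0 Lgk974-called and 1 DMSO-called region, inside CIITA, the gene of the class II transactivator.

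Of 38 pancreatic epithelial and mucin genes 26 were open in all 8 lists. MUC5AC, a gel-forming mucin gene, was open in 0 of 4 Lgk974 and 3 of 4 DMSO libraries at 24 h, but in 2 of 3 Lgk974 and 1 of 4 DMSO libraries at 48 h. AGR3, a disulfide isomerase gene of mucous cells, was open in 0 of 4 Lgk974 and 2 of 4 DMSO libraries, and ST6GALNAC1, a sialyltransferase gene, in 3 of 4 Lgk974 and 1 of 4 DMSO libraries. Of 166 tested regions near this list 1 was Lgk974-called and 0 were DMSO-called. Gastric and intestinal genes were open in all 8 lists at 7 of 21, and CLDN18, a claudin gene of the stomach, was open in 0 of 4 Lgk974 and 2 of 4 DMSO libraries. The Lgk974-called region by CTSE was the single separated one of 88 tested near this list. Epithelial transcription factors were open in all 8 lists at 27 of 38. RUNX1 was open at its ends in 2 of 4 Lgk974 and 4 of 4 DMSO libraries, and at a start within it in 4 of 4 and 4 of 4. Of 242 tested regions near this list 0 were Lgk974-called and 2 DMSO-called, inside ETS1 and TEAD1. The ETS1 region was found in 1 of 3 Lgk974 and 4 of 4 DMSO lists at 48 h.

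Growth genes were read from 2 lists over the 8 libraries. Of 37 cell cycle genes 33 were open in all 8 lists, CCNE1, the cyclin E1 gene, and E2F2 were each open in 3 of 4 Lgk974 and 4 of 4 DMSO libraries, and 0 of 151 nearby tested regions were separated in either direction. Of 29 genes of ribosome biogenesis and MYC targets 28 were open in all 8 lists. The 103 nearby tested regions held 0 Lgk974-called and 1 DMSO-called region, 75 bp from NOP56, the gene of a nucleolar protein. That region overlapped the neighbouring gene IDH3B. Of 16 housekeeping genes 15 were open in all 8 lists, ACTB being open in 4 of 4 Lgk974 and 3 of 4 DMSO libraries, and 0 of 59 nearby tested regions were separated.

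Mesenchymal and fibroblast genes were open in all 8 lists at 6 of 22 and in none at 8, and 0 of 109 nearby tested regions were separated. TWIST1, a transcription factor of mesenchyme, was open in 0 of 4 Lgk974 and 3 of 4 DMSO libraries at 24 h and in 1 of 3 Lgk974 and 0 of 4 DMSO libraries at 48 h. Immune cell genes were open in all 8 lists at 5 of 21, and 1 of 77 nearby tested regions was DMSO-called, 23132 bp from CD4. That region overlapped an end of another gene, PTMS. Over the 442 genes of the 15 lists together, 1921 tested regions lay within 50 kb, of which 2 (0.104%) were Lgk974-called and 11 (0.573%) DMSO-called. Near any protein-coding gene, 56 of 44660 tested regions (0.125%) were Lgk974-called and 160 (0.358%) DMSO-called. No list had more than 9 testable gene ends, and the median difference per list ran from -2 libraries (pancreatic epithelial and mucin genes, 3 testable) to 1 library (WNT ligands, receptors and secretion genes and immune cell genes, 3 testable each).

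**Figure D3:**
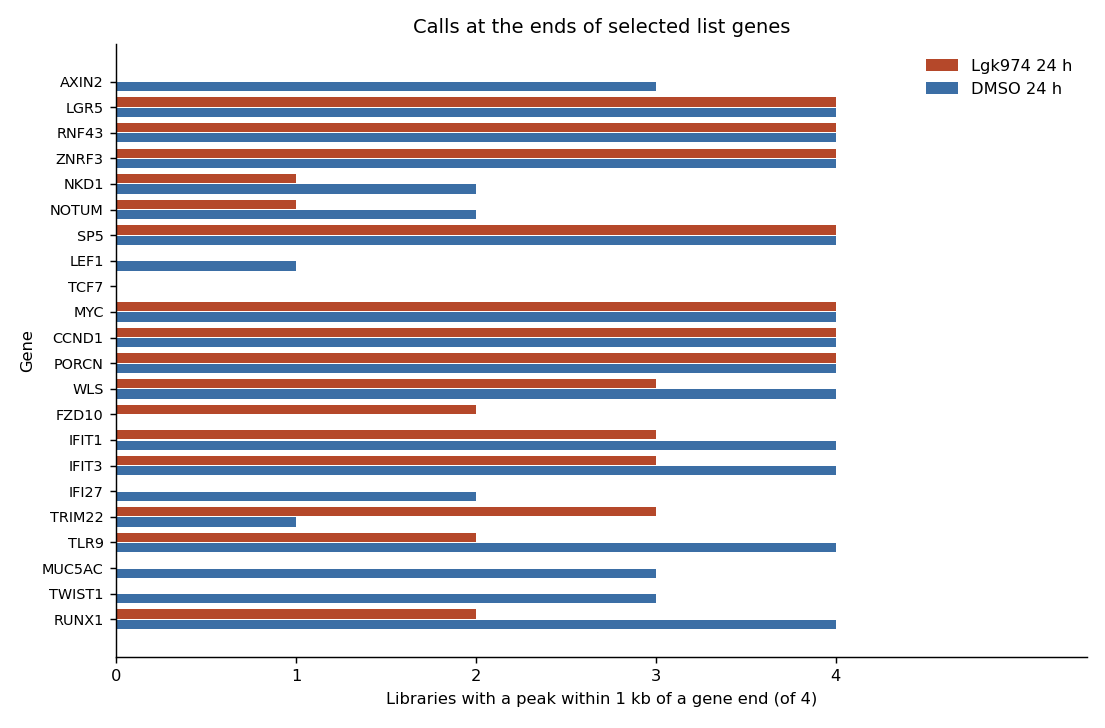
Number of Lgk974 and DMSO libraries at 24 h, of 4 each, with a peak within 1 kb of an end of 22 list genes. PORCN, LGR5, RNF43 and ZNRF3 are open in 4 and 4, and AXIN2, MUC5AC and TWIST1 in 0 with Lgk974 and 3 with DMSO.

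The 48 h libraries took no part in choosing these regions and allow the direction to be looked up in other samples. Of the 71 Lgk974-called regions, 69 (97.2%) were called in a larger share of Lgk974 than of DMSO libraries at 48 h, and 2 in a smaller share. Among them 20 were called in 3 of 3 Lgk974 and 0 of 4 DMSO lists, including the regions of LUZP2, SIK3, PRKCA (the stronger), CCDC112, TBC1D1 and PLB1. Of the 195 DMSO-called regions, 137 (70.3%) were called in a smaller share of Lgk974 than of DMSO libraries at 48 h, 44 in a larger share and 14 equally often. Among them 17 were called in 0 of 3 Lgk974 and 4 of 4 DMSO lists, including the regions of LYRM9, TNFAIP8L3 and CARD14. The leading DMSO-called region, nearest IFNG, was called in every 48 h list. No separated region was separated the other way at 48 h. For comparison, of all 8958 regions called in 4 of the 8 lists at 24 h, 55.9% were called in a larger and 40.2% in a smaller share of Lgk974 libraries at 48 h.

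By library, the Lgk974-called regions were called at 94.4, 97.2 and 49.3% in the 3 Lgk974 libraries at 48 h, against 9.86, 43.7, 8.45 and 19.7% in the 4 DMSO libraries. Every Lgk974 library was thus above every DMSO library, with means of 80.3 ± 26.9% (SD, n = 3) with Lgk974 and 20.4 ± 16.3% (SD, n = 4) with DMSO. The DMSO-called regions were called at 35.9, 59.0 and 2.05% in the Lgk974 libraries, against 47.7, 74.4, 53.3 and 56.4% in the DMSO libraries. Here the groups overlapped, since Lgk974 replicate 2 lay above 3 of the DMSO libraries, with means of 32.3 ± 28.6% with Lgk974 and 57.9 ± 11.5% with DMSO. Over all 8958 regions called in 4 of 8, the same replicate 3 of Lgk974 at 48 h called 8.12%, against 68.9 and 78.2% in the other Lgk974 libraries, and its list held 57649 peaks, against 102795 and 122732 in those. With equal numbers of peaks in every 48 h list, the Lgk974-called regions were called at 43.7 ± 3.73% with Lgk974 and at 0% in each DMSO library, and the DMSO-called regions at 1.37 ± 0.783% with Lgk974 and 18.7 ± 3.98% with DMSO, with no overlap of the groups in either set.

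**Figure D4:**
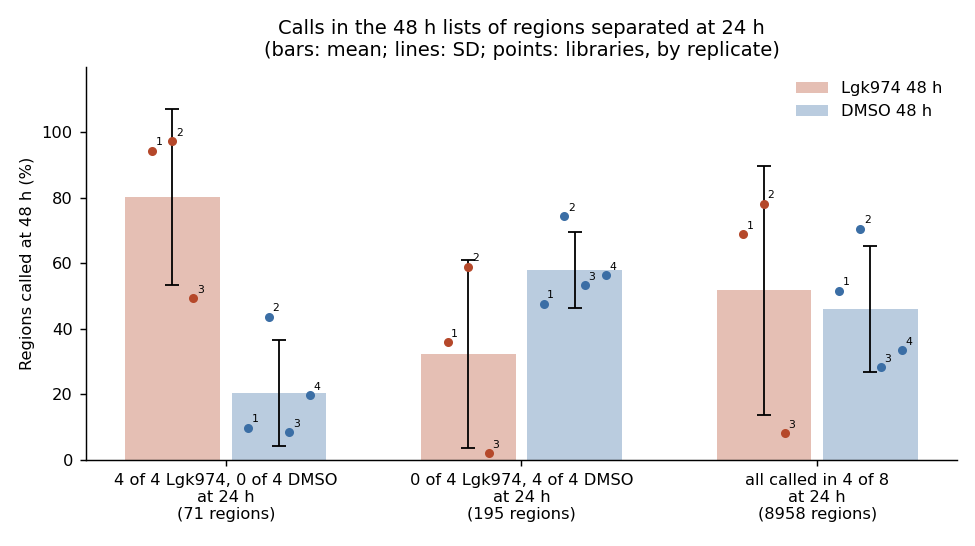
Share of regions called in each 48 h library, in percent, for the 71 regions called in 4 of 4 Lgk974 and 0 of 4 DMSO lists at 24 h, the 195 called in 0 of 4 Lgk974 and 4 of 4 DMSO lists, and all 8958 called in 4 of the 8 lists (bars, mean; lines, SD; points, libraries numbered by replicate). The 3 Lgk974 libraries lie above the 4 DMSO libraries in the left set alone.

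The balance of the 2 directions turned when Lgk974 replicate 3 alone was left out (842 Lgk974-called and 203 DMSO-called regions). It did not turn when DMSO replicate 3 alone was left out (102 and 712). Without replicate 3 of each group, the remaining 6 lists gave 140628 regions, of which 33035 were called in 2 to 4 lists. Of these, 1196 (3.62%) were called in 3 of 3 Lgk974 and 0 of 3 DMSO lists, and 730 (2.21%) in 0 of 3 Lgk974 and 3 of 3 DMSO lists, so Lgk974-called regions were then the larger set. With 3 libraries against 3 the exact permutation test cannot go below p = 0.1, and 0 of 33035 regions passed it, adjusted or not. All 71 Lgk974-called and 194 of the 195 DMSO-called regions of the 8 lists were among the 1196 and the 730. This follows from their choice, since leaving out libraries cannot undo a separation unless region borders change. At 48 h, 1041 of the 1196 (87.0%) and 573 of the 730 (78.5%) kept their direction in these other samples. The 1196 were called at a mean of 64.5% in the Lgk974 and 21.6% in the DMSO libraries at 48 h. For the 730 the means were 28.0% and 67.0%, and for all regions called in 3 of the 6 lists 44.9% and 38.1%. In the libraries left out, the 1196 regions were called at 8.53% in Lgk974 replicate 3 and 29.6% in DMSO replicate 3, and the 730 at 2.47% and 27.9%, while all 10124 regions called in 3 of the 6 lists were called at 3.92% and 28.1%. In both sets and in the background the longer DMSO list thus held more of the regions than the shorter Lgk974 list. Within Lgk974 replicate 3 the share of the 1196 lies above the background and that of the 730 below it. Within DMSO replicate 3 the share of the 1196 (29.6%) also lies slightly above the background (28.1%) and that of the 730 (27.9%) slightly below. This is opposite to the direction in which the sets were separated. Neither difference was tested.

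The median percentile of the 1196 was 23.1 and that of the 730 was 24.0, against 25.6 and 25.9 in the regions separated over 8 lists. A few of the highest-ranked added regions are given here, named after their values were seen. PALLD, an actin-associated protein gene, held a DMSO-called region that ranked at the 79.6, 77.6 and 64.3 percentile in DMSO replicates 1, 2 and 4 and was found in 1 of 3 Lgk974 and 4 of 4 DMSO lists at 48 h. The region 165137 bp from SLC39A10, a zinc importer gene, ranked at the 84.4, 72.7 and 55 percentile and was found in 0 of 3 Lgk974 and 4 of 4 DMSO lists at 48 h. The region 14791 bp from TGFA, the gene of an EGF receptor ligand, ranked at the 81, 66.4 and 35.6 percentile and was found in 1 of 3 Lgk974 and 4 of 4 DMSO lists at 48 h. None of these 3 was called in replicate 3 of either group. With Lgk974, a region inside RAB37, a small GTPase gene, ranked at the 64.6, 53.5 and 69 percentile in replicates 1, 2 and 4 and was found in 3 of 3 Lgk974 and 0 of 4 DMSO lists at 48 h. It was called in replicate 3 of both groups at 24 h. A region at an end of POU2F2, an octamer-binding factor gene, ranked at the 55, 59.2 and 61.6 percentile, and was found in 3 of 3 Lgk974 and 2 of 4 DMSO lists at 48 h.

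Near any protein-coding gene, the 6 lists gave 950 Lgk974-called (3.62%) and 573 DMSO-called regions (2.18%) of 26275 tested. Near WNT targets they gave 6 Lgk974-called and 6 DMSO-called regions of 140 tested (4.29% each). The DMSO-called ones lay inside NKD1 (1 of 3 Lgk974 and 4 of 4 DMSO lists at 48 h), 3686 bp from ID2 (0 of 3 and 4 of 4), 35343 bp from PROX1 (0 of 3 and 3 of 4), at JUN (0 of 3 and 2 of 4), near MYC (2 of 3 and 4 of 4) and inside TCF7L2 (1 of 3 and 1 of 4). The Lgk974-called ones lay near CCND1 (1 of 3 Lgk974 and 0 of 4 DMSO lists at 48 h), MMP7 (2 of 3 and 3 of 4) and JUN (2 of 3 and 1 of 4), inside TCF7L2 (2 of 3 and 3 of 4), and at 2 places by PPARD, a nuclear receptor gene, found at 48 h in 2 and 3 of 3 Lgk974 and 0 of 4 DMSO lists. JUN and TCF7L2 thus had regions in both directions, and the regions of MMP7 and both of TCF7L2 did not keep theirs at 48 h.

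Near pancreatic epithelial and mucin genes 6 of 93 tested regions (6.45%) were Lgk974-called and 1 (1.08%) was DMSO-called. The Lgk974-called ones included those by FOXA2 and CREB3L1 (each in 2 of 3 Lgk974 and 0 of 4 DMSO lists at 48 h), KRT7 (3 of 3 and 3 of 4), MUC13 (1 of 3 and 2 of 4) and the pair MUC4 and MUC20 (1 of 3 and 1 of 4). Other lists had shares as large. Of 58 tested regions near gastric and intestinal genes, 4 (6.90%) were Lgk974-called and 0 DMSO-called. Of 62 near mesenchymal and fibroblast genes, 4 (6.45%) were Lgk974-called and 1 was DMSO-called. Near cell cycle genes 6 of 93 (6.45%) were Lgk974-called and 2 (2.15%) DMSO-called, and near genes of ribosome biogenesis and MYC targets 2 of 62 (3.23%) were Lgk974-called and 5 (8.06%) DMSO-called. Near antigen presentation genes 0 of 50 were Lgk974-called and 3 (6%) DMSO-called. These counts are small, and no list was tested against the rest.

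Gene ends separated without replicate 3 numbered 26 (2.72% of 955 tested) open in 3 of 3 Lgk974 and 0 of 3 DMSO libraries, and 20 (2.09%) in 0 of 3 Lgk974 and 3 of 3 DMSO libraries. Among the 26 were PIK3R3, a regulatory subunit of phosphoinositide 3-kinase, and CBFA2T3, a transcriptional corepressor gene, which was open in 3 of 3 Lgk974 and 0 of 4 DMSO libraries at 48 h. Among the 20 were the 14 genes named above and 6 more, including MUC5AC and KLRC2, a natural killer receptor gene open in 0 of 3 Lgk974 and 4 of 4 DMSO libraries at 48 h. These genes were named after their values were seen.

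Equal list lengths also turned the balance. When each of the 8 lists was reduced to its 53583 most significant peaks, the length of the Lgk974 replicate 3 list, 429 of 23629 tested regions (1.82%) were called in all Lgk974 and no DMSO lists, and 128 (0.542%) in no Lgk974 and all DMSO lists. In the full lists only 9 of the 429 had no peak in any DMSO library and 102 had one in all 4. Of the 128, 0 lacked a peak in every Lgk974 library and 0 had one in all 4. The latter 0 was fixed by the limit, since the Lgk974 replicate 3 list was not shortened. At nearly all of these places at least 1 library of the other group thus held a peak that ranked below the limit. The strongest were in CMBL, near FEM1C and in RIPOR3, with median percentiles of 81.5, 81.1 and 79.8, and in the full lists DMSO peaks stood there in 3, 4 and 3 of 4 libraries. The strongest of the 128 was nearest to MYOCD (median percentile 86.5), followed by a region inside HOMER1 (83.1), and in the full lists 2 and 3 of the 4 Lgk974 libraries held a peak there. In equal lists at 48 h, 370 of the 429 and 102 of the 128 kept their direction, with no share over all regions of the equal lists to set beside them. Of the 71 Lgk974-called regions of the full lists 9 kept all 4 Lgk974 peaks at this length, among them those of LUZP2, SIK3, PRKCA (the stronger), CCDC112, TBC1D1, PLB1, ADAMTS9 and RAB7B, and of the 195 DMSO-called regions 0 kept all 4 DMSO peaks.

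**Figure D5:**
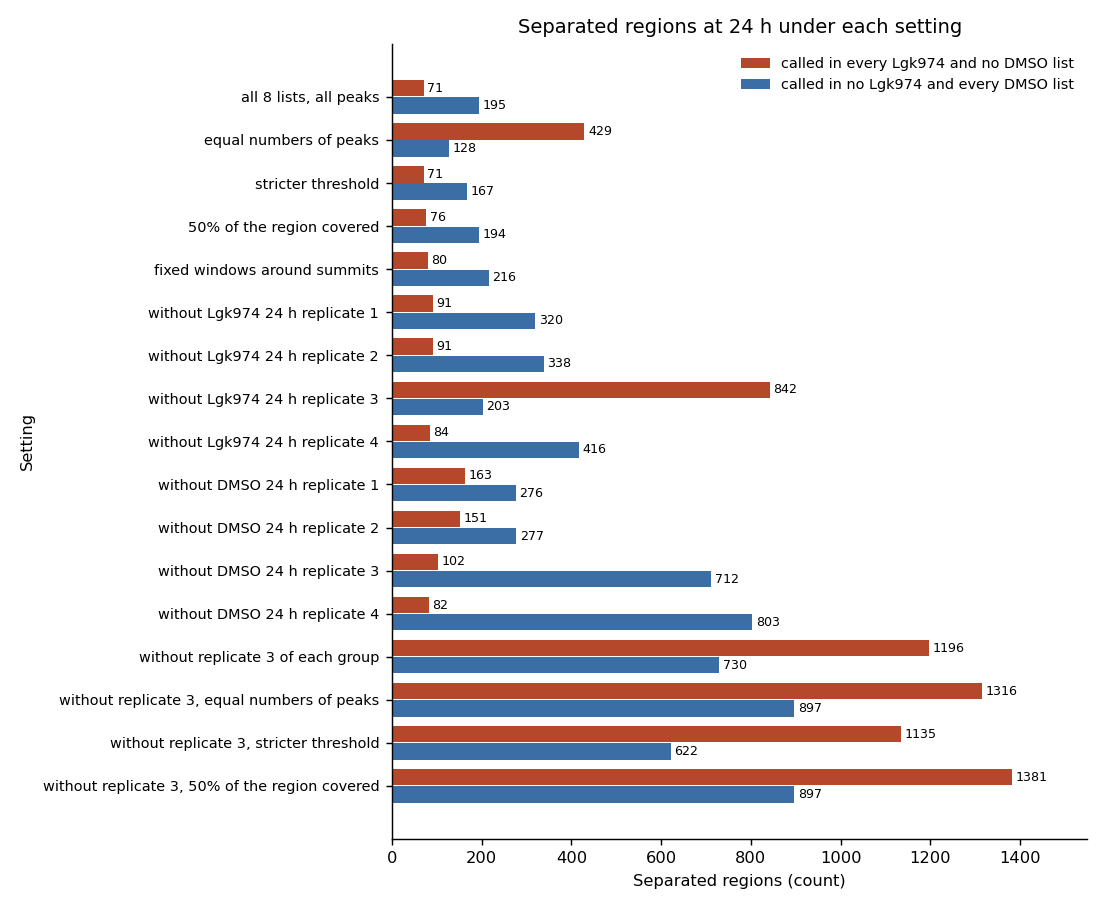
Number of separated regions at 24 h, called in every Lgk974 and no DMSO list or in no Lgk974 and every DMSO list, for all 8 lists and under each other setting. DMSO-called regions are more numerous in the full lists (71 and 195), and Lgk974-called regions with equal numbers of peaks (429 and 128), without Lgk974 replicate 3 (842 and 203) and without replicate 3 of each group (1196 and 730).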

How the data were processed

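ATAC-seq was done on HPAF-II cells with 1 µM Lgk974 or DMSO for 24 h (4 libraries each). The authors deposited a separate peak list for each library, with nothing pooled. Each peak has a deposited fold (the ratio to background) and a deposited −log10 q value, both the authors' own, used here only to rank, filter or describe peaks within a list. Per the submitters' processing notes, tools included MACS2, Bowtie2, Trimmomatic, Picard and SAMtools, with bedtools, DESeq2, DiffBind, ChIPseeker and HOMER, and the build was hg38. Their versions and settings, and whether reads were shifted for the transposase, are not given. Such steps decide which weak peaks enter a list.

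From 761623 peaks, 648 outside chromosomes 1 to 22 and X were left out. Peaks of the 8 lists were merged where they shared at least 1 bp. Read counts were not used here, so no interval on reads is given. Calls were compared per region and per gene end (within 1 kb, RefSeq genes on GRCh38.p14, the assembly of hg38) by two-sided exact permutation tests over 70 assignments, adjusted by Benjamini-Hochberg at 0.05, with code tested on simulated lists (Python 3.11.15, numpy 2.4.6, pandas 2.3.3, scipy 1.17.1, matplotlib 3.10.9).

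Named were the 12 separated regions per direction with the highest median percentile, genes nearest to 2 or more of them, genes with separated ends (all 14 in 1 direction, where the rule asked for 10), up to 4 genes per list with the largest difference at their ends, and a fixed set of WNT, interferon and silencing genes. Some genes that these rules would name are not reported here. Regions, the 15 lists and these rules were chosen with earlier results of these data known. Alternatives were equal list lengths, −log10 q of at least 5, 50% of a region covered, windows of 250 bp on either side of a summit, each library left out, replicate 3 left out, a replicate block, other gene windows, and 10 kb in place of 50 kb.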

Additional observations from a re-analysis of the deposited data

Results flagged for a closer look

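Each of 7 measures was examined in both groups of 4 libraries for 1 library standing far from the other 3, and 7 of 14 groups held one, where chance flags about 1 in 20 groups. Lgk974 replicate 3 lay below the other Lgk974 libraries in peaks (53583, the nearest having 95133), in covered sequence (25.5 Mb, the nearest 49.99 Mb) and in mean Jaccard index (0.495, the nearest 0.624), and above them in the share of summits at gene ends (21.7%, the nearest 15.2%). DMSO replicate 3 lay below the other DMSO libraries in median peak width (327 bp, the nearest 432 bp) and in mean Jaccard index (0.381, the nearest 0.603). DMSO replicate 4, whose list was the shortest of its group, lay above them in the share of summits at gene ends (17.5%, the nearest 13.9%). These measures share 1 list per library and are not independent of each other.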

How the results depend on the processing

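After adjustment 0 regions and 0 gene ends were called under every alternative run. The counts of separated regions (71 Lgk974-called, 195 DMSO-called) stayed within 1.5 times under the stricter threshold, 50% coverage and summit windows. Equal numbers of peaks gave 429 and 128, and leaving out replicate 3 of each group 1196 and 730. Leaving out 1 library gave 82 to 842 and 203 to 803. Without Lgk974 replicate 1, 2, 3 or 4 there were 91 and 320, 91 and 338, 842 and 203, or 84 and 416. Without DMSO replicate 1, 2, 3 or 4 there were 163 and 276, 151 and 277, 102 and 712, or 82 and 803. Fewer libraries make a separation easier to reach by construction. The separated gene ends (1 and 14) became 13 and 5 with equal numbers, 2 and 7 with the stricter threshold, 26 and 20 without replicate 3 of each group, and 1 to 12 (the highest without Lgk974 replicate 3) and 14 to 51 (the highest without DMSO replicate 4) with 1 library left out. Separated regions near listed genes (2 and 11) became 17 and 2 with equal numbers, and 2 and 7 within 10 kb, where fewer regions are tested (933). For the other moves the cause was not tested. The counts without replicate 3 stayed within 1.5 times under equal numbers, the stricter threshold and 50% coverage, as did the gene-end counts with windows of 3 kb or at gene starts. At starts the genes were not all the same. There LYZL2 and IGSF6 were open in 0 of 4 libraries of either group, and BRD1 in 4 of 4 of both.

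No measure of the lists passed its exact test under any alternative, so their signs carry no call. With equal numbers the difference Lgk974 minus DMSO turned to -9.75 bp in median width, -0.446, 0.160 and 0.285 percentage points in summits at gene ends, inside and between genes. Without replicate 3 of each group it turned to 1576 peaks, -7.67 bp, -0.258 points at gene ends and 0.514 points between genes. With 1 library left out it ran from -9.82 to 0.163 Mb in covered sequence, -11.9 to 28.8 bp in width and -0.0197 to 0.0825 in Jaccard index. Equal numbers left the differences at 48 h within 1 SD.

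Same-numbered libraries deviated together with correlations of 0.156, 0.205, 0.338 and 0.0692. Each Lgk974 library and DMSO replicates 2, 3 and 4 correlated best with their own number, whereas DMSO replicate 1 correlated best with Lgk974 replicate 2 (0.200). The labels do not say whether the numbers pair the samples. The main tests therefore used no pairing, although libraries of 1 number may share a source of variation. A replicate block left the counts at 71 and 195 regions and 1 and 14 gene ends, with 0 adjusted calls, since its smallest exact p is 0.125.

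The 31 named regions kept their side of the exact test in 330 of 403 settings and the 41 named gene ends in 482 of 533, and none reversed. For the regions most of this follows from their choice. Called in every list of a group and none of the other, they stay separated when any single library is left out. Separated gene ends do too. Taking away peaks or libraries also cannot reverse a separated region or gene end. Named gene ends that were not separated were above the limit of the test from the start, so they could be counted neither as weaker nor as reversed. Without replicate 3 of each group p cannot go below 0.1, so all 31 regions were weaker. With equal numbers of peaks 9 stayed the same and 22 were weaker, under the stricter threshold 25 and 6. With 50% coverage these were 17 and 14, and all 31 stayed the same with summit windows. Depth is unknown, so an uncalled region may be open below the threshold of its list.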
